A study of Mus musculus with 6 samples.

Results

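Toll-like receptors were described in RNA of hippocampal microglia, across ribosome-bound RNA (IP) and whole-tissue RNA (input). The family was taken as the 10 listed members Tlr1, Tlr2, Tlr3, Tlr4, Tlr5, Tlr6, Tlr7, Tlr8, Tlr9 and Tlr13, out of 39017 genes in the count table. Each was found by its GENCODE symbol, and the rule uses no measured value. The 6 libraries came from hippocampus of female C57BL/6 mice, and every one of them carried Tmem119-Cre and RiboTag. With the RiboTag allele, cells in which Cre is active make an HA-tagged form of the ribosomal protein Rpl22, so that anti-HA beads recover their ribosomes with the RNA on them. The 3 IP libraries were made from RNA precipitated with the anti-HA antibody, and the 3 input libraries from RNA taken with no antibody. Each IP library shares a title code with 1 input library, which gives 3 pairs. Age, treatment and disease state are not given in the labels used here, and no library of a mouse without the tag was analysed here. Cre was driven by Tmem119, so the tag is meant for cells that use or have used that gene, and how exclusive it was cannot be told here. The labels do not say that each code is a separate animal, so the p-values measure the spread between coded specimens.

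Toll-like receptors are membrane proteins of innate immunity that bind molecules typical of microbes or of damaged cells. Those of the cell surface bind bacterial lipids and proteins, while those of endosomes bind nucleic acids. A bound receptor recruits adaptor proteins with a matching TIR domain, chiefly MyD88 or TRIF, which lead through IRAK kinases and TRAF ubiquitin ligases to NF-kappaB and interferon regulatory factors. In the brain, microglia are regarded as the main cells that carry these receptors, and Tlr3 is also known from astrocytes. Here Tlr1, Tlr2, Tlr4, Tlr5 and Tlr6 were taken as surface receptors, and Tlr3, Tlr7, Tlr8, Tlr9 and Tlr13 as endosomal ones.

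Promoter windows of members at the ends of the range of IP levels and folds are shown first, since myeloid promoters often hold purine-rich sites of the lineage factor PU.1. The windows are from RefSeq on GRCm38.p6, run 5′ to 3′ on the strand of the gene, and cover 250 bases before to 50 bases after its start. Capitals mark GAGGAA, the core of such sites, or its complement TTCCTC. Tlr9 (chr9:106222348-106222647, plus strand) and Tlr13 (chrX:106143025-106143324, plus strand) had the highest IP levels per length of transcript. Tlr2 (chr3:83841559-83841858, minus strand) had the largest fitted fold of the members. Tlr3 (chr8:45410331-45410630, minus strand) had the smallest, and Tlr8 (chrX:167264280-167264579, minus strand) had no count.
Tlr9: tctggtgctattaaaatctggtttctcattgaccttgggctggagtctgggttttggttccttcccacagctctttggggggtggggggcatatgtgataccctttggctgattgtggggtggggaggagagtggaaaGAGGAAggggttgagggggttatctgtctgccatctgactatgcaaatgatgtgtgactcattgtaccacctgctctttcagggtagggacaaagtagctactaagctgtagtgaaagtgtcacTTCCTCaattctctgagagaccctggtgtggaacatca
Tlr13: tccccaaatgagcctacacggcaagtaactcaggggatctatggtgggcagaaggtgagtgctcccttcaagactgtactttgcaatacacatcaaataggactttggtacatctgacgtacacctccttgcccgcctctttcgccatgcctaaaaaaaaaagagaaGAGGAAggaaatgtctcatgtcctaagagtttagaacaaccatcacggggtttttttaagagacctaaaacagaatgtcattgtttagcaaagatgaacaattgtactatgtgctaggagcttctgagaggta
Tlr2: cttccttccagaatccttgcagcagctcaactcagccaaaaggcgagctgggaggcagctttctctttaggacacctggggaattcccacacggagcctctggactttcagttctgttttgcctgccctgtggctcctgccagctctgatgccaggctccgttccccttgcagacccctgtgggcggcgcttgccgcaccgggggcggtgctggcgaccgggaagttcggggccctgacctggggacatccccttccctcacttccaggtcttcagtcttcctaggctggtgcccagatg
Tlr3: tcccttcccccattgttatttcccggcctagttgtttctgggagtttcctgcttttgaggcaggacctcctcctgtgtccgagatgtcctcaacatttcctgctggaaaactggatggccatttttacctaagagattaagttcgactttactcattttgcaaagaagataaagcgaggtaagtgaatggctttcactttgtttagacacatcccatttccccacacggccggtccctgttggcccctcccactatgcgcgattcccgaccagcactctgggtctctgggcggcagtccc
Tlr8: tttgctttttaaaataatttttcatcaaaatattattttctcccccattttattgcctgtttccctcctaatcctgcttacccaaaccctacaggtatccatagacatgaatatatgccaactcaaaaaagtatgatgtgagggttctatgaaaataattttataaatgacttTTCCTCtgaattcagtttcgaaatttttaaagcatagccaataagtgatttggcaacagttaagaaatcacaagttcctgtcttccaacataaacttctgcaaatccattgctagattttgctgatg

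GAGGAA was found on either strand in 4 of the 10 windows listed for the members, which belong to 4 different members, and in 28.3% of 32851 mouse promoter windows of the same length. Its first base, read on the strand of the gene, was at -112 and 13 relative to the start in Tlr9, at -83 in Tlr13, at -77 in Tlr8 and at -23 in 1 of the 2 windows of Tlr1. The windows of Tlr2, Tlr3, Tlr5 and Tlr6 did not hold these letters. A composite site of PU.1 with an interferon regulatory factor, GGAA and GAAA with 2 bases of any kind between them, was searched on both strands too and was in 0 of the 10 windows, against 2.72% of all windows. The letters stood in the window of Tlr8, which had no count, and were missing from that of Tlr2. A match is a description of sequence and no evidence of binding. Tlr4 and Tlr7 have no window here.

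The libraries held 10757351 to 18558497 counts in IP and 18448897 to 20422140 in input. Tmem119, the gene that drives Cre, was at 2238 ± 162 CPM (the count scaled to a common library total, with TMM factors) in IP and at 26.2 ± 2.40 CPM in input (SD, n = 3 each). Its log2 fold, IP over input, was 6.41 ± 0.18 (SE) with an edgeR adjusted p of 9.6e-08. The 10 microglial marker genes summed to 20286 to 23978 CPM in IP and to 310 to 403 CPM in input, so the labelled cell type is borne out by its markers. Markers of border macrophages summed to 0.0935 to 7.56 CPM in IP and to 1.07 to 2.57 CPM in input, and Cd163, Lyve1, F13a1 and Pf4 were at 0 in IP. The other border macrophage markers had few and uneven counts: Mrc1 had 65, 17 and 1 in IP, against 8, 0 and 13 in input, Ms4a7 had 58, 0 and 0 in IP, against 6, 0 and 0 in input, and Cbr2 had 17, 14 and 0 in IP, against 0, 0 and 5 in input. Endothelial markers were higher in IP, 5 of 7 by the test, with sums of 156 to 268 CPM in IP and 13.3 to 49.0 CPM in input. The 5 were Flt1 at 33.0-fold, Pecam1 at 29.0-fold, Cdh5 at 20.4-fold, Kdr at 9.90-fold and Cldn5 at 2.74-fold. Tek and Ly6c1 were not called. Fitted folds of the 10 microglial markers were 28.8 to 85.3. The part of endothelial cells in the receptor values was not tested. Of 8 markers of monocytes and neutrophils, 6 were at 0 in all 6 libraries. Of the B cell markers, Ms4a1, Pax5 and Blk were at 0 in every library, while Cd22 was called higher in IP. Neuronal, astrocytic and oligodendrocytic markers were still present in IP, at 1202 to 1292, 906 to 993 and 829 to 1410 CPM, against 7650 to 9242, 2997 to 3933 and 4433 to 7434 CPM in input. Mitochondrial transcripts took 0.360% to 1.31% of counts in IP and 6.63% to 10.3% in input.

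Of the 10 receptors, 9 were higher in IP than in input and Tlr8 had no count. Over all 16196 genes tested, 23.8% were called higher in IP at an edgeR adjusted p below 0.05, and 4.35% were called higher with a log2 fold above 4. Past that fold stood 8 of the receptors, with Tlr3 the exception. Of the 9, Tlr1, Tlr4, Tlr5, Tlr6 and Tlr9 passed the filter on low counts only through their IP libraries, so the number called is a description. In each of them every IP library lay above every input library, which held for 29.0% of genes tested, while 32.9% had every IP library below every input library. These are ratios of RNA shares in bulk material, in which fewer cells of a type and less RNA per cell cannot be told apart.

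Among the surface receptors, Tlr2 was the most abundant and Tlr1 and Tlr6, its partners in lipopeptide binding, were lower. Tlr2 (ENSMUSG00000027995, chr3 83836272-83841767, minus strand) had 97.5, 99.5 and 79.8 CPM in the 3 IP libraries, against 0.653, 1.62 and 0.668 CPM in input. The IP libraries lay close together and far above each input library. Its log2 fold was 6.56 ± 0.38 (SE), a 94.2-fold difference, with an edgeR adjusted p of 9.2e-07.

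Tlr4 (ENSMUSG00000039005, chr4 66827584-66930284, plus strand), the receptor for lipopolysaccharide, had 29.7, 27.0 and 35.7 CPM in IP, against 0.280, 0.521 and 0.668 CPM in input. No IP library came near the input range, and the log2 fold was 5.96 ± 0.44 (SE, edgeR adjusted p = 4.4e-06). Tlr5 (ENSMUSG00000079164, chr1 182954788-182976044, plus strand), which binds bacterial flagellin, had 15.6, 19.98 and 16.9 CPM in IP, against 1.31, 0.0521 and 0.154 CPM in input. Its IP values were even, while 1 input library held most of the input counts. The log2 fold of Tlr5 was 5.08 ± 0.95 (SE, edgeR adjusted p = 0.0018), with no overlap between IP and input.

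Tlr1 (ENSMUSG00000044827, chr5 64924679-64933563, minus strand) pairs with Tlr2 for triacylated lipopeptides. It had 27.0, 17.4 and 16.1 CPM in IP, against 0.0933, 0.104 and 1.13 CPM in input, where the last library stood above the others. The log2 fold of Tlr1 was 5.50 ± 0.90 (SE, edgeR adjusted p = 0.00079). Tlr6 (ENSMUSG00000051498, chr5 64952031-64960097, minus strand), the partner for diacylated lipopeptides, had 24.1, 12.6 and 22.8 CPM in IP, against 0, 0.625 and 1.28 CPM in input. Here IP 2 was the lowest of the IP libraries and still lay above all of input. Its log2 fold was 4.96 ± 0.99 (SE, edgeR adjusted p = 0.0025). Tlr1 and Tlr6 are neighbouring copies: 15.4% of the 50-base stretches of Tlr1 transcripts and 12.3% of those of Tlr6 occur in another gene, mostly in each other. How the counting assigned such reads is not given in the sources used here, so the values of both are uncertain to that extent.

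The endosomal receptors held the most abundant members and also the one without a count. Tlr13 (ENSMUSG00000033777, chrX 106143204-106160493, plus strand), a receptor of mice that senses bacterial ribosomal RNA, had 142, 145 and 158 CPM in IP, against 0.979, 1.56 and 2.62 CPM in input. The IP spread was narrow and the groups did not overlap. Its log2 fold was 6.43 ± 0.34 (SE), with an edgeR adjusted p of 5.7e-07.

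Tlr9 (ENSMUSG00000045322, chr9 106222598-106226883, plus strand), the receptor for unmethylated CpG DNA, had 123, 141 and 104 CPM in IP, against 2.43, 0.0521 and 3.95 CPM in input. Input 2 stood far below the other input libraries, and every IP library lay above all of input. The log2 fold was 5.83 ± 0.76 (SE, edgeR adjusted p = 0.00018). Tlr7 (ENSMUSG00000044583, chrX 167304929-167330558, minus strand), which binds single-stranded RNA, had 102, 125 and 117 CPM in IP, against 0.560, 2.19 and 2.26 CPM in input. Its groups were well apart, with a log2 fold of 6.11 ± 0.44 (SE, edgeR adjusted p = 4.1e-06).

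Tlr3 (ENSMUSG00000031639, chr8 45395665-45411080, minus strand), the receptor for double-stranded RNA, had 39.1, 31.8 and 22.2 CPM in IP, against 4.90, 6.25 and 9.86 CPM in input. The lowest IP library was the one whose paired input was highest, and the groups still did not overlap. Its log2 fold was 2.15 ± 0.37 (SE), a 4.43-fold difference, with an edgeR adjusted p of 0.0010. Exons of Tlr3 overlap those of Gm45542 on the opposite strand, which has no row in the count table. Tlr8 (ENSMUSG00000040522, chrX 167242696-167264329, minus strand), an RNA receptor, had 0 counts in all 6 libraries. A count of 0 allows up to 3 counts a library, or 0.162 to 0.281 CPM in IP and 0.140 to 0.156 CPM in input, so Tlr8 was not detectable at this depth. Such floors reflect counting error alone, because reads that carry no molecular identifier do not count molecules one by one.

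**Figure D1:**
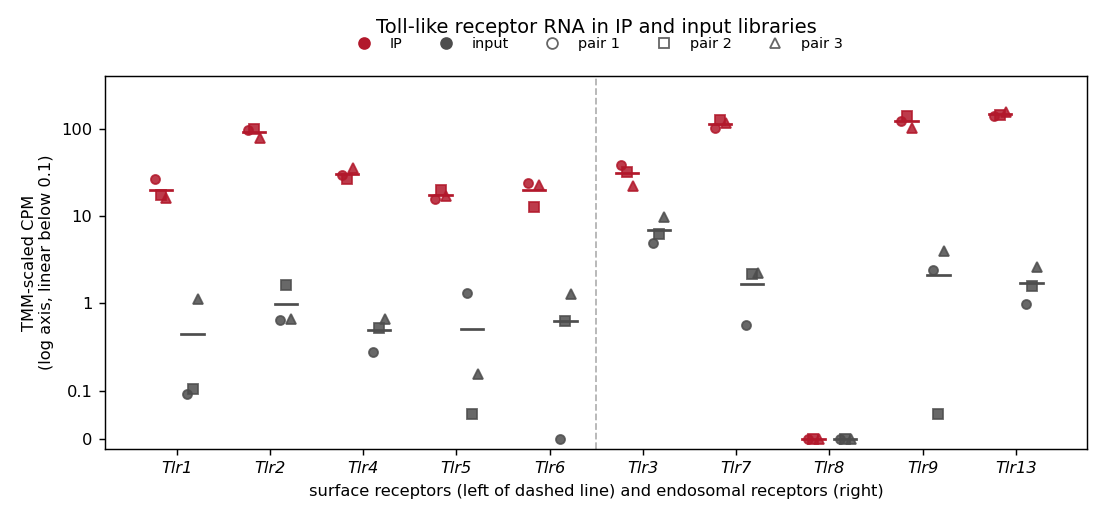
Level of each Toll-like receptor in CPM, on an axis that is logarithmic down to 0.1 and linear below, with 1 point per library (marked by pair), a line at the mean, IP left of input, and surface receptors left of endosomal ones. In 9 receptors the 3 IP points lie above the 3 input points, Tlr3 has the highest input level at 7.00 ± 2.57 CPM (SD, n = 3), and Tlr8 has no count.

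The folds rest on few input counts, and these were uneven between libraries for 4 receptors. Tlr5 had 289, 234 and 181 counts in IP, against 28, 1 and 3 in input. Tlr9 had 2275, 1649 and 1112 counts in IP, against 52, 1 and 77 in input. In both genes a single input count in the second library stood beside 28 or more counts in another.

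Tlr1 had 499, 204 and 172 counts in IP and 2, 2 and 22 in input, and Tlr6 had 446, 148 and 244 in IP and 0, 12 and 25 in input. The fitted fold of these 4 genes moved accordingly when libraries were left out, while the call was kept in each of the 18 alternatives run. Without input 3 the log2 fold of Tlr1 was 7.55, and without pair 1 it was 4.74. Without input 1 that of Tlr5 was 7.30, and without pair 2 it was 4.44.

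For Tlr6 the log2 fold was 4.36 without input 1 and 5.97 without input 3. For Tlr9 it was 5.24 without input 2 and 6.56 without input 3. The size of these 4 folds is therefore less certain than their direction. The other 5 tested receptors kept narrower ranges when libraries were left out, at 6.29 to 7.09 for Tlr2, 5.67 to 6.23 for Tlr4, 1.74 to 2.64 for Tlr3, 5.68 to 6.37 for Tlr7 and 6.14 to 6.84 for Tlr13.

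**Figure D2:**
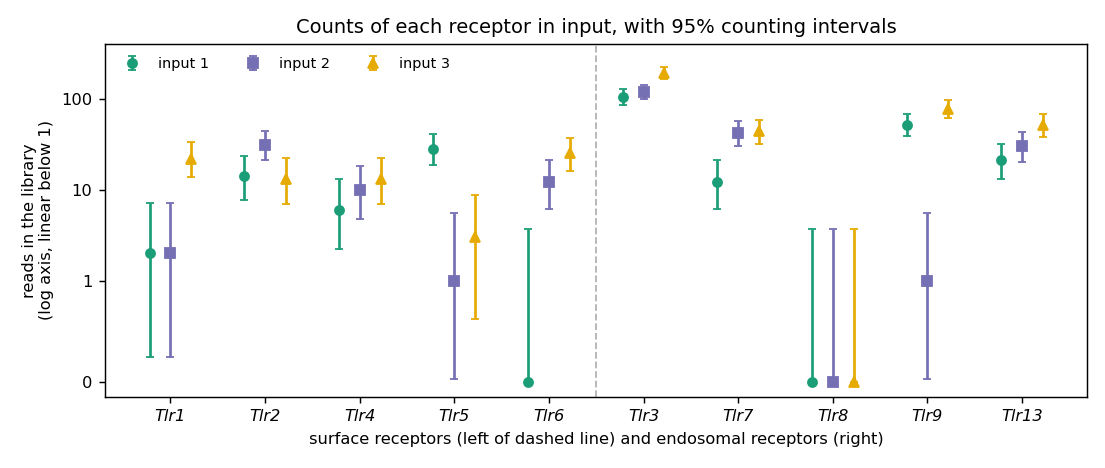
Raw counts of the receptors in the 3 input libraries, on an axis that is logarithmic down to 1 and linear below, with bars for the exact 95% Poisson interval of each count. Tlr5, Tlr9, Tlr1 and Tlr6 have input libraries at 0 to 3 counts beside others at 12 to 77, while Tlr3 has 105 to 192 counts in each.

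Tlr3 stood apart from the other receptors by its smaller ratio, and this was seen in each pair. The log2 ratio of CPM + 0.5, IP over input, was 2.87, 2.26 and 1.13 for Tlr3 in pairs 1, 2 and 3, with a mean of 2.09 ± 0.89 (SD, n = 3). On the same scale, the other 8 detected receptors had means of 4.29 ± 1.15 for Tlr6 to 6.13 ± 0.46 for Tlr13. In every pair Tlr3 was the lowest of the 9. Its ratio minus the median of the other 8 was -2.70, -3.12 and -3.72 in pairs 1, 2 and 3. The nearest of the others were Tlr5 in pair 1, at 3.16, Tlr6 in pair 2, at 3.55, and Tlr1 in pair 3, at 3.35. The pseudocount of 0.5 lowers ratios of genes with little input, so it narrows the gap between Tlr3 and the rest.

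Tmem119 had a ratio of 6.50, 6.38 and 6.29 in pairs 1, 2 and 3. Set against it with the pseudocount of 0.5, Tlr3, Tlr6, Tlr5, Tlr1 and Tlr4 lay lower by more than the SD between pairs. The mean difference in log2 ratio was -4.30 ± 0.78 for Tlr3, -2.10 ± 1.06 for Tlr6, -2.02 ± 1.16 for Tlr5, -1.80 ± 1.02 for Tlr1 and -1.40 ± 0.21 for Tlr4 (SD, n = 3 pairs each). For Tlr13, Tlr2, Tlr9 and Tlr7 it was -0.26 ± 0.36, -0.36 ± 0.40, -0.41 ± 1.78 and -0.54 ± 0.55, each smaller than its SD. The pseudocount of 0.5 lowers the ratios of receptors with little input and hardly that of Tmem119, and with a pseudocount of 2 the differences of the 9 receptors ran from -4.43 to -0.95. Fitted log2 folds, which use a smaller prior count, were 6.56 for Tlr2 and 6.43 for Tlr13, against 6.41 for Tmem119. The order of these against Tmem119 thus depends on the scale. Fitted folds of Tlr4, Tlr1, Tlr5 and Tlr6 were 5.96 ± 0.44, 5.50 ± 0.90, 5.08 ± 0.95 and 4.96 ± 0.99 (SE). Their distance below Tmem119 was smaller on that scale. Against the median ratio of the 10 microglial markers, which averaged 5.79 ± 0.17 (SD, n = 3), the mean difference turned positive for Tlr13, Tlr2, Tlr9 and Tlr7, at 0.34 ± 0.35, 0.23 ± 0.51, 0.19 ± 1.66 and 0.06 ± 0.61, again no larger than its SD. Tlr3 was below both on the ratio and on the fitted scale, where its fold of 2.15 stood beside a marker median of 5.70. The part that other cells of the tissue have in the input level of Tlr3 was not tested.

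**Figure D3:**
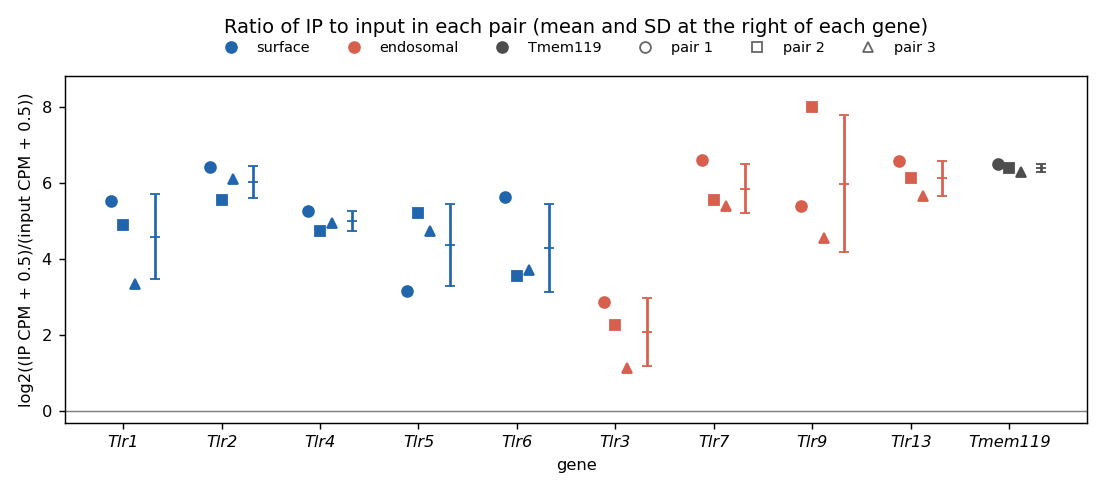
Log2 ratio of CPM + 0.5, IP over input, for each receptor in each of the 3 pairs, with the mean and SD (n = 3) beside the points and Tmem119 for comparison. Tlr3 lies lowest in every pair, at 1.13 to 2.87, and the points of Tlr9 spread most, from 4.55 to 7.9995.

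The difference between surface and endosomal receptors depended on how members were summarised. The median log2 ratio of the 5 surface receptors was 5.53, 4.89 and 4.74 in pairs 1, 2 and 3. That of the 5 endosomal receptors was 5.40, 5.55 and 4.55, where Tlr8 enters at 0 from the pseudocount alone. The difference, surface minus endosomal, was 0.13, -0.66 and 0.18, with a mean of -0.11 ± 0.47 (SD, n = 3). Without Tlr8, among members that passed the count filter, it was -0.46, -0.95 and -0.25, with a mean of -0.55 ± 0.36. With all members and a pseudocount of 2 it was -1.03, -1.50 and -1.02. As a mean over members, where Tlr8 again enters at 0, it was 0.91, 0.40 and 1.22. That 0 lowers the endosomal mean, and no mean over members without Tlr8 was run. Mean log2 ratios over the pairs were 2.09 for Tlr3, 5.85 for Tlr7, 5.98 for Tlr9 and 6.13 for Tlr13. The surface receptors had 4.29 to 6.03. The sign of the mean over members is therefore not read as a result. As summed CPM, to which Tlr8 adds 0, the difference, surface minus endosomal, was 0.66, 0.30 and 0.90. In that sum Tlr3 held 4.90, 6.25 and 9.86 of the 8.86, 10.06 and 18.7 CPM of endosomal receptors in input. A sum without Tlr3 was not run. The first of these summaries, the median over all members, changed sign between pairs. Each of the others held 1 sign in all 3 pairs, but that sign differed between summaries. No direction is therefore given for surface against endosomal receptors. With 3 pairs, 0.25 is the smallest p that an exact two-sided permutation of signs can give. The spread within each class was wide, with fitted log2 folds of 4.96 to 6.56 among surface receptors and of 2.15 to 6.43 among the 4 endosomal receptors tested.

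Levels of different receptors were compared per kilobase of merged exons. In IP, Tlr9 was at 35.2 ± 5.29, Tlr13 at 34.4 ± 1.98, Tlr2 at 30.6 ± 3.604 and Tlr7 at 28.1 ± 2.82 CPM per kb (SD, n = 3 each). These 4 overlapped each neighbour in the order and formed an upper tier.

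Below them came Tlr1 at 6.02 ± 1.77, Tlr3 at 5.96 ± 1.63, Tlr4 at 5.54 ± 0.806, Tlr6 at 5.33 ± 1.69 and Tlr5 at 3.65 ± 0.467 CPM per kb in IP. The values of Tlr7 and Tlr1 did not overlap over libraries, whereas neighbours within the lower tier did. Each tier held surface and endosomal receptors. In input the order was another one, with Tlr3 first at 1.35 ± 0.493 CPM per kb, then Tlr9 at 0.616 ± 0.565, Tlr7 at 0.409 ± 0.236, Tlr13 at 0.3998 ± 0.193 and Tlr2 at 0.325 ± 0.183. The other detected receptors were at 0.0881 to 0.171 CPM per kb in input, and all neighbours there overlapped.

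As a share of the summed CPM per kb of the family, Tlr3 made up 4.80%, 3.79% and 2.90% of IP, against 36.6%, 40.6% and 36.1% of input. It was thus the leading receptor transcript of whole hippocampus and a minor one of the precipitate, with no overlap between IP and input. Tlr13 took 22.3% ± 2.33 of IP and 10.9% ± 1.82 of input, and Tlr2 19.7% ± 1.47 of IP and 10.3% ± 7.14 of input (SD, n = 3 each). Tlr7 took 18.2% ± 1.86 of IP and 11.3% ± 6.44 of input. Tlr9, at 22.7% ± 2.35 of IP, ran from 0.507% to 27.1% of input. The endosomal receptors together held 64.5% to 68.7% of IP and 71.6% to 79.9% of input. In CPM, the astrocytic, neuronal and oligodendrocytic marker sums were all lower in IP than in input. Tlr3 itself was higher in IP on that measure, at 31.0 ± 8.48 CPM against 7.00 ± 2.57 CPM in input (SD, n = 3 each). Its share of the family sum was lower. The part of astrocytes, neurons and oligodendrocytes in the share of Tlr3 was not tested.

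**Figure D4:**
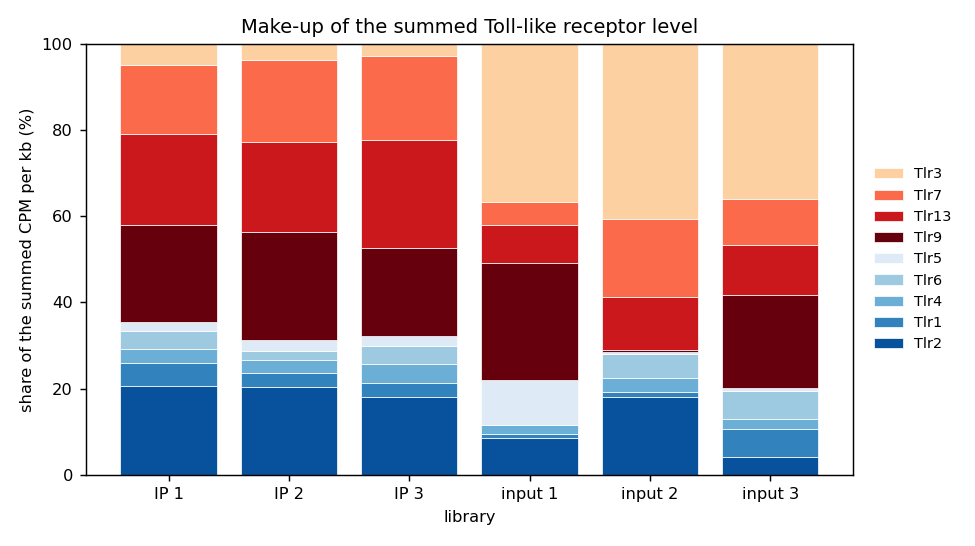
Share of each receptor in the family's summed CPM per kilobase, in percent, as 1 stacked bar per library, IP left of input. Tlr3 takes 2.90% to 4.80% of IP libraries and 36.1% to 40.6% of input libraries, and Tlr9 nearly vanishes from input 2, at 0.507%.

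Mice have a further pair of receptors outside the 10, Tlr11 and Tlr12, which bind profilin of protozoan parasites. Tlr12 had 29.5, 22.03 and 28.7 CPM in IP, against 0.326, 0.104 and 0.205 CPM in input. Every IP library lay above all of input, and the fitted log2 fold of Tlr12 came to 6.91 ± 0.51 (SE, edgeR adjusted p = 4.2e-06). Its input counts were only 7, 2 and 4, so Tlr12 passed the filter on low counts only through its IP libraries. A prior count of 2 put the log2 fold at 6.34. The size of this fold thus rests on few input counts and is not ranked against the members. Tlr11 had 17 counts in IP 2 and none in the other 5 libraries, and was not tested.

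The genes that work with these receptors were then followed by role. Over all genes tested the median log2 fold was -0.10, which is the level against which each list is given. Of 87 genes on the lists, 44 were called higher and 9 lower in IP. Some of the 44, among them Tlr12, Btk and Il1rl2, passed the filter on low counts only through their IP libraries. The number called is therefore a description. These 87 include genes with too few counts to be tested. Of all genes tested, 23.8% were called higher and 23.9% lower.

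Co-receptors that present ligand were partly higher in IP: 3 of 6 were called higher, none lower, and the median log2 fold of the 5 tested was 4.99. Cd14, which hands lipopolysaccharide to Tlr4, was at 170 ± 31.1 CPM in IP and 3.05 ± 1.48 CPM in input (SD, n = 3 each), a log2 fold of 5.80. Cd180, a relative of Tlr4 without a TIR domain, was at 81.1 ± 8.91 CPM in IP and 2.55 ± 0.917 CPM in input. Its partner Ly86 was at 528 ± 174 CPM in IP and 12.8 ± 2.33 CPM in input.

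Ly96 encodes MD-2, which holds lipopolysaccharide on Tlr4. It had 2.05, 9.56 and 1.22 CPM in IP, against 0.653, 0.469 and 1.28 CPM in input, and 1 IP library fell within the input range. Its edgeR adjusted p was 0.12, with a range of 0.038 to 0.71 when libraries were left out and 0.046 by DESeq2. It was chosen for its role after its values were seen. Lbp, the plasma protein that carries lipopolysaccharide, had a log2 fold of -0.37 with an edgeR adjusted p of 0.84. Cd36, a lipid receptor that works with Tlr2, had no count in IP and 39 counts in input.

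Chaperones and sorting proteins of the receptors were mostly higher, 7 of 8 with none lower and a median log2 fold of 1.56. Unc93b1, which carries the nucleic acid receptors to endosomes, led the list at 1177 ± 184 CPM in IP and 19.2 ± 4.28 CPM in input (SD, n = 3 each), a log2 fold of 5.93. The general chaperone Hsp90b1 was at 351 ± 70.4 CPM in IP and 171 ± 1.47 CPM in input, a log2 fold of 1.04, and Slc15a3, an endosomal peptide transporter, at 260.1 ± 13.8 CPM in IP and 96.1 ± 4.21 CPM in input. Cnpy4, a folding factor, was not called, with a log2 fold of 0.43 and an edgeR adjusted p of 0.41.

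Enzymes that cut receptors or their nucleic acid ligands included 8 of 10 genes called higher and 1 lower, with a median log2 fold of 2.90. The proteases that process endosomal receptors were abundant in IP: Ctss was at 4767 ± 655 CPM in IP and 80.9 ± 19.6 CPM in input, and Lgmn at 2914 ± 350 CPM in IP and 98.1 ± 7.63 CPM in input (SD, n = 3 each). Ctsb was at 2702 ± 443 CPM in IP and 668 ± 16.1 CPM in input. The endosomal exonucleases Pld4 and Pld3, which degrade ligands of Tlr9, went in opposite directions. Pld4 was at 728 ± 127 CPM in IP and 10.6 ± 3.35 CPM in input, a log2 fold of 6.10, whereas Pld3 was at 243 ± 40.0 CPM in IP and 598 ± 27.8 CPM in input, a log2 fold of -1.30. Ctsk was not called, with 7 counts in IP and 72 in input. Rnaset2a and Rnaset2b are near-identical copies, and their values are uncertain.

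Of the adaptors, 5 of 6 were called higher and Sarm1 lower, with a median log2 fold of 3.18. Myd88, the adaptor of most members, was at 114 ± 18.9 CPM in IP and 13.2 ± 1.37 CPM in input (SD, n = 3 each), a log2 fold of 3.11. Ticam1, which encodes TRIF, the adaptor of Tlr3, was at 53.1 ± 6.43 CPM in IP and 12.3 ± 4.26 CPM in input, a log2 fold of 2.11. Pik3ap1, which links the receptors to PI3-kinase, was at 173 ± 24.7 CPM in IP and 3.06 ± 1.499 CPM in input, the largest fold of the list at 5.81. Sarm1, a TIR-domain NAD hydrolase known from axon degeneration, was at 23.97 ± 5.78 CPM in IP and 46.9 ± 2.94 CPM in input. Its log2 fold was -0.97 with an edgeR adjusted p of 0.0085, and the call was lost without pair 1, at 0.061.

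Kinases and ubiquitin enzymes of the pathway had smaller folds, with 13 of 18 called higher, 1 lower and a median log2 fold of 1.52 over the 17 tested. Tab2, which binds ubiquitin chains, was at 208 ± 14.4 CPM in IP and 42.5 ± 10.1 CPM in input (SD, n = 3 each). Traf3, a ligase of the interferon branch, was at 96.5 ± 25.1 CPM in IP and 32.2 ± 13.1 CPM in input. Irak1, a kinase next to MyD88, was at 84.9 ± 7.96 CPM in IP and 39.1 ± 5.54 CPM in input. Btk, a kinase of myeloid and B cells, had the largest fold, at 61.8 ± 12.9 CPM in IP and 0.431 ± 0.385 CPM in input. The log2 fold of Btk was 7.14, with a range of 6.48 to 8.07 when libraries were left out, and rested on 9, 1 and 16 input counts. Ube2n, which builds the ubiquitin chains that TRAF6 uses, was lower in IP, at 16.2 ± 5.79 CPM against 62.9 ± 5.25 CPM in input, a log2 fold of -1.96. Among those called higher, Ikbkg lost its call in 6 of 9 fits that left libraries out and with the pair as a block, at an edgeR adjusted p of 0.053. Traf6 lost it in 2 of the 9.

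Inhibitors of the pathway were mixed, with 4 of 10 called higher, 2 lower and a median log2 fold of 0.47. Tollip, which restrains IRAK1, was the most abundant and was lower in IP, at 112.5 ± 11.8 CPM against 173 ± 25.1 CPM in input (SD, n = 3 each), a log2 fold of -0.62. Its edgeR adjusted p was 0.013, and the call was lost in 4 of 9 fits that left libraries out. Dusp1, a phosphatase of MAP kinases, was lower as well, at 6.76 ± 2.33 CPM in IP and 28.9 ± 6.59 CPM in input, a log2 fold of -2.09. Called higher were Tnfaip3, Rnf216, Irak3 and Atf3. Tnfaip3, which encodes the ubiquitin editor A20, was chosen after its values were seen, at 56.7 ± 16.7 CPM in IP and 6.34 ± 2.15 CPM in input. Atf3, a repressor induced by stress, spread over 14.0, 30.7 and 3.55 CPM in IP, against 2.94, 0.521 and 0.976 CPM in input, and its call was lost in 2 of those 9 fits. Rnf216, a ligase that targets the receptors, had a log2 fold of 0.79 and lost its call in 1, and Irak3, which encodes an inhibitory IRAK, lost its call in 8 and, with the pair as a block, at an edgeR adjusted p of 0.12. Cyld, a deubiquitinase, had a log2 fold of 0.51 and an edgeR adjusted p of 0.068.

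Of 10 genes that active receptors induce, 6 had too few counts to be tested, among them Il12b and Ifnb1 with no count in any library. Tnf had 16, 34 and 0 counts in IP, against 0, 1 and 0 in input, Il1b had 35, 0 and 0 in IP, against 0, 0 and 5 in input, and Il6 had 0, 0 and 23 in IP, against 10, 0 and 0 in input. Each of these had at least 1 IP library with no count, so IP and input overlapped.

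Nfkbia, the inhibitor that NF-kappaB itself induces, was called higher, at 38.1 ± 5.88 CPM in IP and 17.7 ± 2.18 CPM in input (SD, n = 3 each), a log2 fold of 1.10. The chemokine Ccl3 had 140, 169 and 123 counts in IP, against 0, 42 and 0 in input. Its edgeR adjusted p was 0.056, and 0.015 with the pair as a block. Ccl4, another chemokine, had a log2 fold of 2.67 and an edgeR adjusted p of 0.17. Ptgs2, which encodes cyclooxygenase-2 and is known from neurons too, was called lower, with 21, 0 and 0 counts in IP, against 277, 101 and 263 in input. The call of Ptgs2 was lost in 4 of 9 fits that left libraries out.

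**Figure D5:**
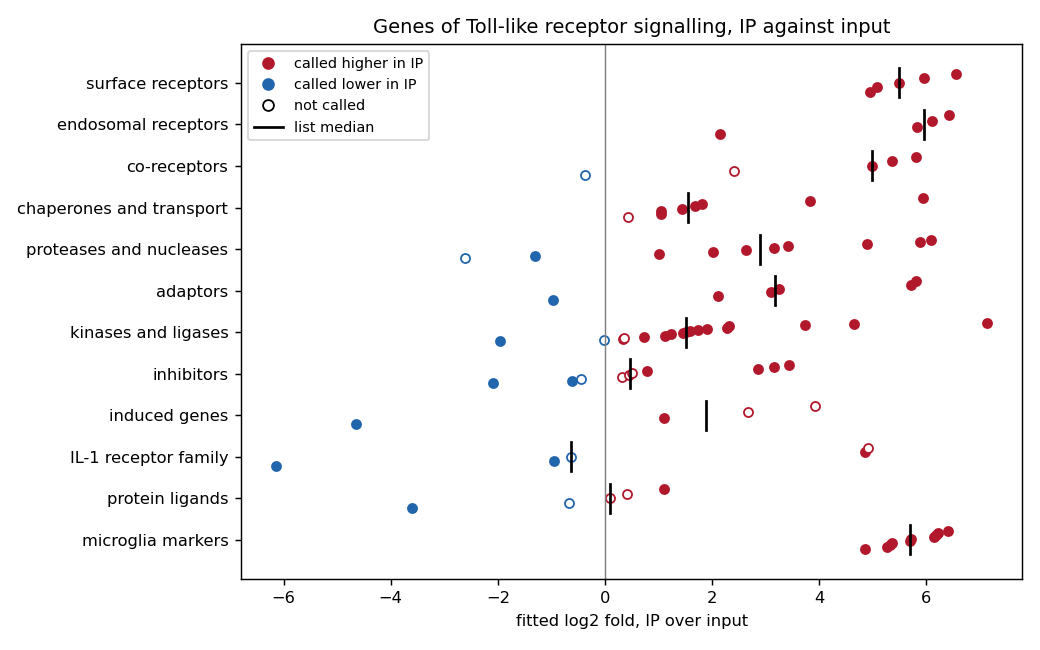
Fitted log2 fold, IP over input, of each tested gene by role in the pathway, with called genes filled, genes not called open and the median of each list as a line. The medians are 5.50 for the surface receptors, 5.97 for the 4 endosomal receptors tested, 4.99 for co-receptors, 1.52 for kinases and ligases, 0.47 for inhibitors and 5.70 for microglial markers.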

How the data were processed

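The authors deposited raw read counts per gene, as whole numbers, in 1 table with a column for each of the 6 libraries, all of which were used. Per the labels' protocols, the library kit enriched mRNA and kept strand. The submitters' processing notes name bcl2fastq 2.17, FastQC, Trimmomatic and the build mm10. The aligner, counter, strand option and gene models were not given in the sources used here, so genes with overlapping or near-identical partners are uncertain. GENCODE M21 gave symbols and coordinates, on GRCm38 (mm10). It named 37607 identifiers, while 1410 stayed unnamed and were kept, and 17550 had no count.

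IP was compared with input by edgeR's quasi-likelihood test (edgeR 4.0.16, R 4.3.3) on the deposited counts, with TMM factors, filterByExpr at a minimum count of 10, robust dispersion and without a block. Benjamini-Hochberg adjustment ran over 16196 genes, and an adjusted p below 0.05 was called. Fitted folds use a prior count of 0.125, and SE comes from the F statistic. The test was also run on counts simulated from these libraries, with changes smaller than the receptor folds. The outcome of that run is not given here, so it lends no support to the calls. Ratios per pair are log2 differences of CPM + 0.5. Library totals and floors of 3 counts are given with the results, and Poisson intervals cover counting error only. Libraries of a group differed by more than sampling noise, with a chi-square per degree of freedom of 24.1 to 48.0.

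The pairing comes from the title code that an IP and an input library share. Over 11181 genes the correlation of deviations from group means was 0.05, 0.23 and 0.16 within codes and -0.18 to 0.02 between them, so the first pair is weakly tied. Alternatives were DESeq2 1.42.0, limma-voom (limma 3.58.1), other size factors and filters, a pair block, a 2-fold minimum, and leaving out each library or pair. The text names all 10 members and Tmem119, and of each pathway list the 3 tested genes with the highest IP level and those with the highest and lowest fold. A gene or result that this rule takes may not be reported here. Other genes named were chosen after their values were seen. The members and lists were chosen with earlier results of these data known.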

Additional observations from a re-analysis of the deposited data

How the results depend on the processing

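All 9 tested receptors were called higher in each of the 18 alternatives run, and none lower. With the pair as a replicate block, 43 pathway genes were higher and 8 lower, against 44 and 9 without it, and 3698 of all genes were higher and 3784 lower, against 3853 and 3869. The block put the log2 fold of Tlr5 at 5.83, gave Ccl3 an adjusted p of 0.015, and ended the calls of Irak3, Ikbkg and Il1rapl1, at 0.12, 0.053 and 0.059. It changed the call of no member. Limma-voom, chosen as an alternative test, gave log2 folds of 6.33 for Tlr1, 5.96 for Tlr5, 6.26 for Tlr6 and 7.01 for Tlr9. Leaving out a library or a pair gave 5 to 10 pathway genes lower and 38 to 45 higher, with 5 lower both without input 1 and without input 3. Over all genes it gave 2468 to 4192 lower and 2786 to 3910 higher, the lowest count of lower genes being that without pair 1. Against a 2-fold minimum, 2176 of all genes were higher and 2020 lower, and 31 and 6 of the pathway genes. Surface minus endosomal receptors, -0.11 as reported, was -1.18 with a pseudocount of 2 and 0.62 as summed CPM. As a mean over members, where Tlr8 enters at 0, it was 0.84. The reported difference was -0.26 to 0.16 when pairs were left out, with the positive value coming without pair 2. Medians without Tlr3 gave -0.55 and fitted medians -0.47. The summed CPM, the median without Tlr3, the fitted median and the addition of Tlr12 to the family sum were chosen after seeing the data. Against the microglial marker median in place of Tmem119, the sign turned for Tlr13 at 0.34, Tlr2 at 0.23, Tlr9 at 0.19 and Tlr7 at 0.0605. The cause of these changes was not tested. Scaling by library totals moved the median log2 fold of all genes to -0.20, against -0.10 with TMM factors. Input counts of 0 to 3 limit the precision of the folds of Tlr1, Tlr5, Tlr6 and Tlr9, and Tlr8 was not detectable at this depth.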

Other observations

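Receptors of the interleukin-1 family share the TIR domain and the MyD88 adaptor with the Toll-like receptors, and their genes had folds of both signs. Of 9, 1 was called higher in IP and 2 lower, and the median log2 fold of the 5 tested was -0.63, against 5.50 for the surface Toll-like receptors and -0.10 for all genes tested. Il1rap, the shared co-receptor of interleukin-1 and its relatives, was at 11.4 ± 1.88 CPM in IP and 22.1 ± 2.21 CPM in input (SD, n = 3 each), a log2 fold of -0.95 with an edgeR adjusted p of 0.022. That call was lost in 4 of 9 fits that left libraries out. Il1rl2, the receptor of interleukin-36, was at 6.32, 7.51 and 6.265 CPM in IP, against 0, 0.678 and 0 CPM in input, and its call was lost in 6 of those fits. Il1rl1, the receptor of interleukin-33, had 227, 63 and 0 counts in IP, against 0, 11 and 0 in input, and was not called, with an edgeR adjusted p of 0.079. Il1rapl1, a synaptic member of the family, was called lower, with 1 count in IP and 145 in input. Its ratio of input over IP was 98.7 with a 95% counting interval of 17.4 to 3925, and its call was lost with the pair as a block, at an edgeR adjusted p of 0.059, and in 4 of 9 fits that left libraries out. Its log2 fold was -6.13, and -4.09 with a prior count of 2.

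Genes of proteins of the body proposed to bind Toll-like receptors were measured too. Bgn, a matrix proteoglycan, was at 26.2 ± 10.8 CPM in IP and 12.2 ± 3.20 CPM in input (SD, n = 3 each). It was called higher, with an edgeR adjusted p of 0.035, and lost that call in 7 of 9 fits that left libraries out. Hspd1, a mitochondrial chaperone, was at 53.0, 25.6 and 16.6 CPM in IP, against 43.8, 49.8 and 58.8 CPM in input, and was not called at an edgeR adjusted p of 0.18. It was called lower without IP 1, with a log2 fold of -1.27 and an edgeR adjusted p of 0.0084, and without pair 1, with -1.36 and 0.024, against -0.67 with all libraries.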
